A study of Rattus norvegicus with 9 samples.

Results

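This is an account of 9 genes grouped under white fat lipid storage and adipokines, measured in the thoracic aorta of rats: Adipoq, Cfd, Lipe, Lpl, Cidec, Pparg, G0s2, Pck1 and Ces1d. They are 9 of the 9653 named genes and stand on 10 of the 12750 array probes that carry 1 gene symbol. White fat is the name of the group, and whether the values come from white or brown fat cells was not tested. The probes were taken by symbol from the platform's annotation. The genes themselves were chosen on their measured values in these same arrays, which were already known to be high in particular animals. Their values are therefore given as a description, with no test of their own.

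Rats born to diabetic mothers (DMO) were compared with rats born to control mothers (CMO), and total RNA of 1 thoracic aorta from each group was hybridised together on a two-colour Agilent array. The 9 arrays hold 5 animal pairs, named here by the number of the DMO animal: pair 193 with CMO animal 189, pair 194 with 190, pair 197 with 191, pair 199 with 192 and pair 220 with 216. In 4 pairs a second array had the dyes swapped, and pair 194 had a single array, carrying its DMO sample on Cy3. The series' design counts 1 array more, which was not analysed here. The labels do not say how the mothers became diabetic, nor the strain, litter, sex or age of the offspring. Animals from a shared litter would make p-values too small.

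Each value is the deposited log ratio of the 2 animals on an array. The base of the logarithm is not stated and was taken as 2, so no fold change is given. Nor is the direction stated, so a positive value may mean higher in either group. Signs are given as deposited: if the ratio runs the other way, every sign turns together. The authors were assumed to have given both dye orientations the same sign convention, which no source used here states, and values under the opposite assumption follow the main results. Gene names rest on a numbering rule for the features that was found in earlier work on these values. A ratio does not show how much of an RNA either aorta held, so the presence of fat cells or of smooth muscle could not be checked from absolute levels.

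White fat cells store triglyceride in a single large droplet and release fatty acids from it when hormones call for fuel. Pparg, the nuclear receptor that drives fat cell formation, controls many of the genes for fatty acid uptake, storage and release. The thoracic aorta is wrapped in perivascular fat, which in rodents is rich in brown fat cells. In a bulk sample such as this one, fewer fat cells and less RNA per fat cell cannot be told apart.

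All 9 genes had high positive ratios in pairs 197 and 199 and ratios near 0 or of mixed sign in the other 3 pairs. On the 4 arrays of pairs 197 and 199 the genes lay between 1.24 and 5.28. Their median was 2.73 in pair 197 and 2.83 in pair 199, while pairs 193, 194 and 220 had -0.07, 0.34 and -0.07. The median over all 19478 features and genes stayed between -0.04 and 0.08 in the 5 pairs. For each of the 9 genes, the lowest of the 4 arrays of pairs 197 and 199 was above the highest of the other 5 arrays, as it was for 2.34% of all rows (455). All 9 exceeded 1 on all 4 arrays, as did 0.483% of all rows (94 of 19478). Because these values chose the genes, nothing is read from either difference.

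**Figure D1:**
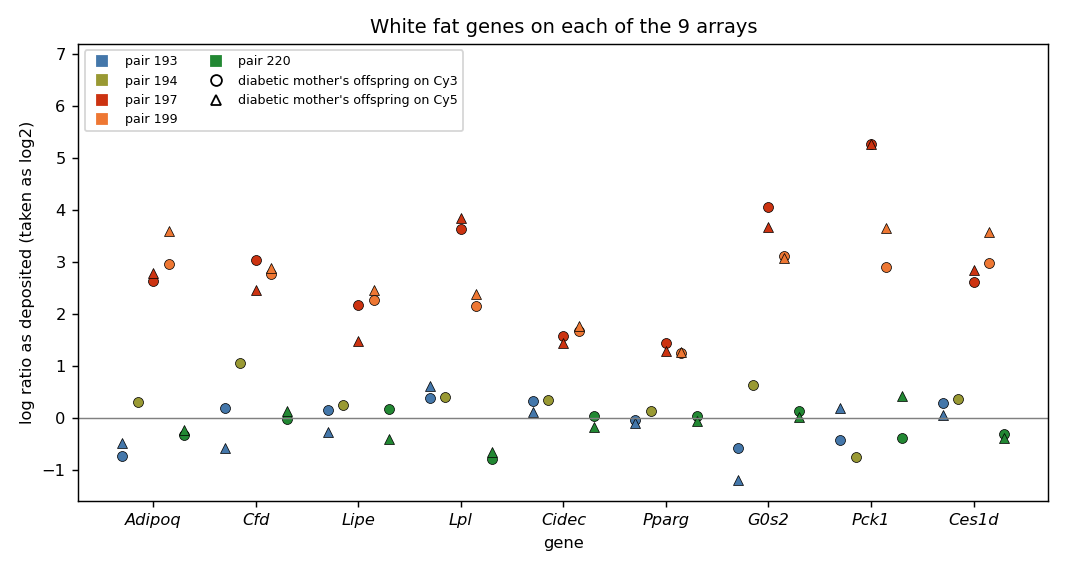
Deposited log ratio (y axis, base taken as 2, sign as deposited) of each of the 9 genes on the 9 arrays, grouped by animal pair, with the dye of the DMO sample marked by symbol. On the 4 arrays of pairs 197 and 199 every gene lies between 1.24 and 5.28, above all of its values on the other 5 arrays.

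The promoters of the 4 genes that exceeded 3 in pair 199 and lie in the RefSeq promoter table are shown because these genes moved together in the same animals. Each runs 300 bases, from 250 before to 50 after the annotated start, 5′ to 3′ along the gene, in RefSeq's rat assembly GRCr8. They lie at chr11:91240120-91240419 (minus strand) for Adipoq, chr13:107335899-107336198 (minus strand) for G0s2, chr3:182348322-182348621 (plus strand) for Pck1 and chr19:30046244-30046543 (plus strand) for Ces1d. Capitals mark matches, on either strand, to the TATA box (letters TATAAA), the CCAAT box (letters CCAAT), a nuclear receptor half-site (letters AGGTCA), a C/EBP core (letters TTGCNNAA) and a cyclic AMP response half-site (letters TGACG).
Adipoq: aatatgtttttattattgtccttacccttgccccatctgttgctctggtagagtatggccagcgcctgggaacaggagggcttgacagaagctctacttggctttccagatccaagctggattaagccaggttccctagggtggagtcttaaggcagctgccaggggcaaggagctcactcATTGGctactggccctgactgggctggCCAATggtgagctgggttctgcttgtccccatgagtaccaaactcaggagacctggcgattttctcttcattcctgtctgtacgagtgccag
G0s2: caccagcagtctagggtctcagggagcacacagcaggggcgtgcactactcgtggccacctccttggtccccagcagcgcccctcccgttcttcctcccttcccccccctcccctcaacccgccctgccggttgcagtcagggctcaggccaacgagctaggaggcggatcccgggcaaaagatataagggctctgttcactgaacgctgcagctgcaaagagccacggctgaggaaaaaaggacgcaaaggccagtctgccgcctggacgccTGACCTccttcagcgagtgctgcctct
Pck1: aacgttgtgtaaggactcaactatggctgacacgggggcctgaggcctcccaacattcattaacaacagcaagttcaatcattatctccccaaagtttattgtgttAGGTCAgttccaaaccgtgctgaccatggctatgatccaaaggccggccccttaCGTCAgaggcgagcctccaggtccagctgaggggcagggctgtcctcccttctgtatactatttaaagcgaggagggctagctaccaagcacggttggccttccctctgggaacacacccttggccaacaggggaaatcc
Ces1d: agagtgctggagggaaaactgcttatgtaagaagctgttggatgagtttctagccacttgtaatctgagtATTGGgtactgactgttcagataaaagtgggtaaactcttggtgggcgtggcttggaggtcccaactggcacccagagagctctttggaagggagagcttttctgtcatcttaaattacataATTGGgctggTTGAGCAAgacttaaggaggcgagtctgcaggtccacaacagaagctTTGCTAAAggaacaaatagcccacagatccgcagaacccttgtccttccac

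Of the 9 genes, 7 were found in the promoter table, Pparg with 2 starts, and Lipe and Lpl were not. CCAAT, the CCAAT box, stood in the promoters of 3 of the 7 (Adipoq, Pparg and Ces1d) and in 37.5% of all 33469 rat promoters of that length. TTGCNNAA, a core bound by C/EBP factors, stood in 3 of the 7 (Cidec, Pparg and Ces1d) and in 10.6% of all. AGGTCA, the half-site of many nuclear receptors, stood in 2 of the 7 (G0s2 and Pck1) and in 16.2% of all. TGACG, the half-site of the cyclic AMP response element, was added after the sequences had been read. It stood in 2 of the 7 (Cfd and Pck1) and in 21.2% of all. TATAAA stood in 1 of the 7, Pparg, on the reverse strand downstream of the start, and in 14.2% of all. The matches therefore differ from gene to gene: in the printed window, Pck1 has AGGTCA at -144 and the reverse complement of TGACG at -90, Adipoq has CCAAT at -42 and its reverse complement at -69, and G0s2 has the reverse complement of AGGTCA at 23. Positions give the leftmost base of a match relative to the annotated start, and a match is a run of letters, not a site shown to be bound.

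Adipoq encodes adiponectin, a hormone secreted by fat cells that raises insulin sensitivity. Adipoq values were 2.63 and 2.80 for pair 197, 2.95 and 3.60 for pair 199, 0.31 for pair 194, -0.74 with -0.49 for pair 193, and -0.33 with -0.24 for pair 220, the array with the DMO sample on Cy3 first in each swapped pair. Both high pairs stood clear of the other 3, whose highest array reached 0.31. In pair 193 the gene was among the lowest of all rows, at place 19232 of 19478, while it was the third from the top in pair 199. Its mean was 1.08 ± 1.79 (SD, n = 5 pairs).

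Cfd encodes adipsin, the complement factor D protease that fat cells secrete. Cfd values were 3.03 and 2.45 for pair 197, 2.78 and 2.89 for pair 199, 1.06 for pair 194, 0.19 with -0.59 for pair 193, and -0.02 with 0.13 for pair 220. It was the only one of the 9 genes to exceed 1 in pair 194, where 1.49% of all rows did. Cfd was also the only gene of the 9 whose arrays in pairs 197 and 199 overlapped, and its mean was 1.30 ± 1.44 (SD, n = 5 pairs).

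Lipe encodes hormone-sensitive lipase, which splits diglyceride at the droplet during fat release. Lipe values were 2.17 and 1.48 for pair 197, 2.27 and 2.46 for pair 199, 0.25 for pair 194, 0.15 with -0.28 for pair 193, and 0.18 with -0.40 for pair 220. The arrays of pair 199 were higher than those of pair 197, and the other 3 pairs had no array above 0.25. Its mean was 0.85 ± 1.16 (SD, n = 5 pairs).

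Lpl encodes lipoprotein lipase, which frees fatty acids from circulating lipoproteins at the capillary wall. Lpl values were 3.63 and 3.84 for pair 197, 2.15 and 2.38 for pair 199, 0.39 for pair 194, 0.38 with 0.62 for pair 193, and -0.79 with -0.66 for pair 220. Unlike Lipe, it was higher in pair 197 than in pair 199. The other 3 pairs were also apart for this lipase: at 0.50 in pair 193 it ranked 305 from the top, and at -0.72 in pair 220 it ranked 19262. Its mean was 1.23 ± 1.76 (SD, n = 5 pairs).

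Ces1d encodes a carboxylesterase that hydrolyses triglyceride in rodent liver and fat. Ces1d values were 2.62 and 2.84 for pair 197, 2.98 and 3.57 for pair 199, 0.37 for pair 194, 0.29 with 0.05 for pair 193, and -0.31 with -0.39 for pair 220. Its pair values of 2.73 (pair 197) and 3.27 (pair 199) lay beside 2.71 and 3.28 for Adipoq, whereas pair 193 had 0.17 for Ces1d and -0.61 for Adipoq. The related carboxylesterase genes Ces1c and Ces1e, looked up after the values of Ces1d were seen, had -0.18 and 0.47 in pair 197 and -0.20 and 0.55 in pair 199. Ces1e, with at most 0.07 in the other pairs, was thus higher in pairs 197 and 199 too, but far less so than Ces1d. Ces1c was not higher there. The mean of Ces1d was 1.24 ± 1.64 (SD, n = 5 pairs).

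G0s2 encodes a small protein that inhibits adipose triglyceride lipase. G0s2 values were 4.07 and 3.68 for pair 197, 3.11 and 3.09 for pair 199, 0.63 for pair 194, -0.59 with -1.20 for pair 193, and 0.13 with 0.02 for pair 220. The inhibitor was high in the same pairs as the lipases, and with a pair value of -0.89 it was the most negative of the 9 genes in pair 193. Its mean was 1.36 ± 2.04 (SD, n = 5 pairs).

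Cidec encodes a droplet protein that lets small droplets fuse into a large one. Cidec values were 1.58 and 1.45 for pair 197, 1.67 and 1.76 for pair 199, 0.34 for pair 194, 0.32 with 0.10 for pair 193, and 0.04 with -0.18 for pair 220. The 4 high arrays lay within a narrow band from 1.45 to 1.76, and the other 5 lay at or under 0.34. Its mean was 0.74 ± 0.81 (SD, n = 5 pairs).

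Pparg, the receptor described above, had the smallest ratios of the 9 in both high pairs and was measured by 2 probes. Pparg values, as the mean of the probes, were 1.45 and 1.29 for pair 197, 1.24 and 1.26 for pair 199, 0.13 for pair 194, -0.04 with -0.10 for pair 193, and 0.03 with -0.06 for pair 220. The probes gave much the same picture: on the 4 high arrays the first ranged from 1.34 to 1.51 and the other from 1.11 to 1.38. Outside pairs 197 and 199 no array passed 0.13, and the mean was 0.53 ± 0.71 (SD, n = 5 pairs).

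Pck1 encodes cytosolic phosphoenolpyruvate carboxykinase, which supplies glycerol for triglyceride assembly in fat and glucose in liver. Pck1 values were 5.28 and 5.28 for pair 197, 2.91 and 3.65 for pair 199, -0.76 for pair 194, -0.42 with 0.20 for pair 193, and -0.38 with 0.42 for pair 220. In pair 197 it had the highest value of all 19478 rows, and in pair 199 the second highest. In pair 194 it was the only negative gene of the 9, at place 19257, and its mean was 1.54 ± 2.62 (SD, n = 5 pairs).

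The 2 high pairs were alike in which genes were high and differed in the amounts. Pair 197 exceeded pair 199 by 2.0 for Pck1, 1.47 for Lpl and 0.78 for G0s2. Pair 199 was the higher one for Adipoq (difference of 197 from 199 -0.57), Lipe (-0.54), Ces1d (-0.54) and Cidec (-0.20). For Pparg the difference was 0.12 and for Cfd -0.09. The 2 arrays of one pair did not overlap those of the other for 8 of the 9 genes, and for 43% of all rows. With 1 pair of animals on each side, the difference has no replicate check.

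**Figure D2:**
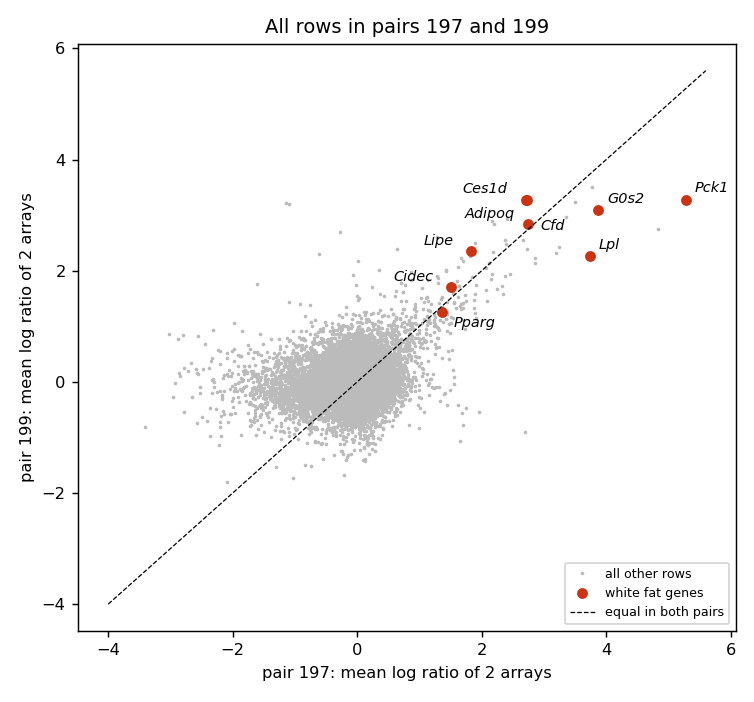
Pair value in pair 199 (y axis) against pair 197 (x axis), both deposited log ratios with the base taken as 2. The 9 genes are marked and named, and all other rows are drawn in grey. Pck1 (5.28 and 3.28) and Lpl (3.74 and 2.26) lie below the line of equal values, and Adipoq (2.71 and 3.28) above it.

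The other 3 pairs held no common pattern. In pair 193, 3 of the 9 genes were positive (Lpl, Cidec and Ces1d), with a range from -0.89 to 0.50. In pair 194, 8 of 9 were positive, from -0.76 for Pck1 to 1.06 for Cfd. In pair 220, 3 of 9 were positive (Cfd, G0s2 and Pck1), from -0.72 to 0.08. Over all rows the medians in pairs 193, 194 and 220 were 0.0087, -0.033 and 0.016. None of the 9 genes was positive in all 5 pairs, as 3.34% of all rows were, and none was negative in all 5, as 2.82% were.

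In the comparison of DMO with CMO over the 5 pairs, no row passed limma's moderated test after Benjamini-Hochberg adjustment: 0% (0 of 19478) at an adjusted p of 0.05, the 9 genes included. At an unadjusted p under 0.05 there were 4.77% of rows (929), of which 2.23% (435) were positive and 2.54% (494) negative. The same test without moderation of the variance passed 1 row, the ribosomal protein gene Rps23, which is named after its values were seen and is none of the 9. The median of the 9 genes' means was 1.23, against 0.0037 over all rows. It rests on pairs 197 and 199: it was 0.61 without pair 197, 0.73 without pair 199 and 0.02 without both.

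The 2 dye orientations of pairs 197 and 199 were also set side by side. Taking the dye part as 0.5 of the difference between the 2 arrays of a pair, its median size over the 9 genes was 0.11 in pair 197 and 0.093 in pair 199. Over all rows the median size was 0.11 and 0.20. The 9 genes had one sign on both arrays in pairs 197 and 199, which their choice had fixed, since they were picked for high values there, so neither the signs nor the sizes of these dye parts are read against all rows. In pair 193, 6 of 9 had one sign on both arrays and in pair 220, 4 of 9, against 43.9% and 46.5% of all rows. The largest dye parts were 0.39 for Cfd in pair 193, 0.35 for Lipe in pair 197, and for Pck1 0.37 in pair 199 and 0.40 in pair 220. Across all rows, the 2 arrays of pair 199 had a Pearson r of -0.19, beside 0.67 in pair 197, 0.18 in pair 193 and 0.068 in pair 220 (rows are not independent replicates). In pair 199, 149 rows were over 1 on both arrays, the 9 genes among them, and 359 rows were past 1 on both with opposite signs.

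**Figure D3:**
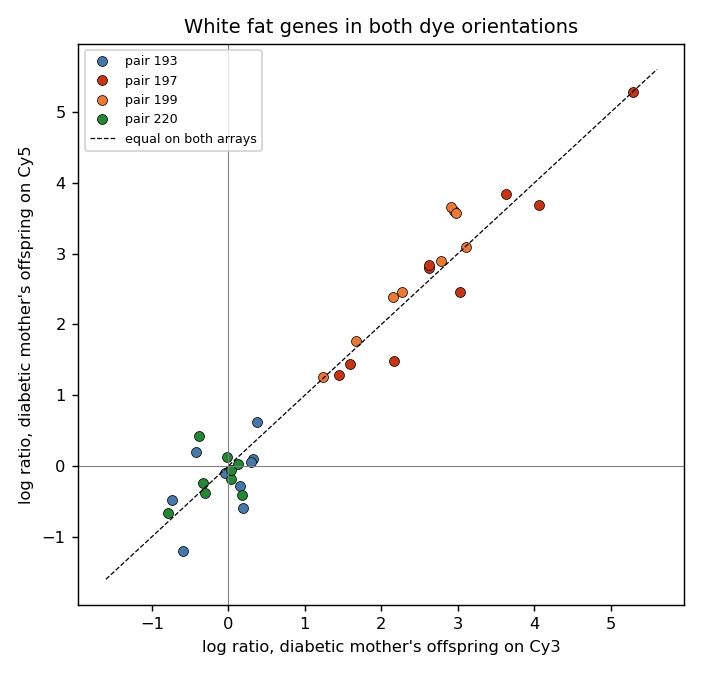
Log ratio on the array with the DMO sample on Cy5 (y axis) against that with it on Cy3 (x axis) in the 4 swapped pairs, with the 9 genes marked. In pairs 197 and 199 the 9 genes lie near the line of equal values, and in pairs 193 and 220 around 0.

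The high values become small if the 2 dye orientations follow opposite sign conventions. With every Cy5 array reversed, pairs 197 and 199 had a median over the 9 genes of 0.07 and -0.09, while pairs 193, 194 and 220 had 0.11, 0.34 and 0.04. The means over 5 pairs then ran from -0.37 ± 0.27 (SD) for Pck1 to 0.32 ± 0.46 (SD) for Cfd. Adipoq, Lpl and Pck1 would have means below 0. The median of the list means became -0.010 for the other fat cell markers, 0.10 for fatty acid uptake and activation, 0.15 for triglyceride breakdown, -0.17 for brown fat and 0.050 for smooth muscle.

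Around the 9 genes, 67 other genes of fat cell pathways were measured, from 8 lists drawn up with earlier results of these data known. None passed the adjusted test. At an unadjusted p under 0.05, 8 were positive and 0 negative, beside 2.23% and 2.54% of all rows. Over 1 on all 4 arrays of pairs 197 and 199 were 11 of the 67, beside 0.483% of all rows, and below -1 were 0, beside 0.0103%. The median of the 67 means was 0.10, beside 0.0037 over all rows, and 54 were positive. The share of positive means over all rows was not counted. The pair medians were -0.0021, -0.079, 0.30, 0.27 and 0.023 in pairs 193, 194, 197, 199 and 220. They are not read against the 9 genes, which were chosen for high values in pairs 197 and 199. Gene values in the next paragraphs are pair values in that same order.

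Of 5 other adipokines and secreted fat proteins, 1 exceeded 1 on the 4 arrays, and the list's median mean was 0.10 (0.17 without pair 194). The 1 gene was Rbp4, the retinol carrier, with 0.09, 0.52, 2.40, 2.93 and -0.18 and a mean of 1.15 ± 1.41 (SD, n = 5 pairs). Agt, the angiotensin precursor made by liver and fat, had 0.40, 0.13, 1.13, 1.84 and 0.05. Lep, the fat hormone leptin, had 0.10, -0.28, 0.08, -0.10 and 0.07, so it stayed near 0 where Adipoq and Cfd were high. Its mean was -0.02 ± 0.16 (SD, n = 5 pairs), and Apln, the gene of a vasoactive peptide, had a mean of 0.10 ± 0.15 (SD, n = 5 pairs).

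Of 7 other genes of triglyceride breakdown, 2 exceeded 1, and the median mean was 0.20 (0.30 without pair 194). Adrb3, the receptor through which noradrenaline starts fat release, had 0.39, -0.55, 3.36, 2.96 and 0.31. Prkar2b, a regulatory subunit of protein kinase A, had -0.49, 0.35, 2.07, 1.65 and 0.18. Aqp7, the glycerol channel of fat cells, had 0.20, 0.12, 0.83, 0.66 and 0.18, higher in the same 2 pairs and short of 1. Pde3b, which breaks down cyclic AMP in response to insulin, had the smallest mean of the list at 0.06.

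Of 9 genes of fatty acid uptake and activation, 2 exceeded 1, and the median mean was 0.42. Fabp4, the fatty acid carrier that marks fat cells, had -0.21, 0.10, 2.86, 2.23 and 0.03 and a mean of 1.0 ± 1.43 (SD, n = 5 pairs). Cd36, a fatty acid transporter, had -0.13, 0.36, 1.89, 1.24 and -0.02. Fabp5, a related carrier also made by other cells, had 0.49, 1.59, 0.50, 0.54 and 0.47: positive in all 5 pairs and highest in pair 194, unlike the 9 genes. Acsl4, which activates long-chain fatty acids, had the smallest mean at 0.07.

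Triglyceride assembly and the droplet showed the same split within their lists. Of 8 genes of synthesis and glycerol supply, Gpd1, which makes glycerol 3-phosphate, had -0.31, -0.11, 2.34, 1.59 and 0.08. Dgat2, which adds the last fatty acid, had -0.32, -0.13, 1.90, 1.58 and -0.08. Dgat1, which catalyses the same step, had 0.30, 0.24, 1.05, 0.79 and -0.16, and the list's median mean was 0.085 (0.052 without pair 197 and 0.15 without pair 220). The glycerol channel gene Aqp3 had the smallest mean, 0.03. Of 6 droplet genes 1 exceeded 1, namely Cidea, the relative of Cidec found mostly in brown fat, with -0.53, -0.98, 3.49, 3.24 and 0.21. Plin2, the droplet coat protein of most cells, had a mean of 0.25 ± 0.25 (SD, n = 5 pairs). Cav1, the main protein of caveolae, had -0.03, -0.16, 1.11, 0.73 and -0.15, and Fitm2, which helps droplets form, had a mean of -0.01. The median mean of the droplet list was 0.15 (0.059 without pair 197).

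Of 11 genes of fatty acid synthesis, 3 exceeded 1, and the median mean was 0.21. That median moved with single pairs: it was 0.40 without pair 193, 0.089 without pair 194, 0.091 without pair 197 and 0.035 without pair 199. Fasn, the fatty acid synthase, had -0.75, 0.69, 1.89, 2.50 and -0.08. Thrsp, an inducer of that pathway, had -0.50, -0.38, 2.17, 2.89 and 0.01. Elovl6, which lengthens fatty acids, had -0.81, -0.01, 1.29, 1.77 and 0.28. All 3 were higher in pair 199 than in pair 197 and negative in pair 193, while Acaca, the gene of acetyl-CoA carboxylase, had a mean of -0.01.

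None of 14 other fat cell transcription factors and none of 7 genes of insulin action exceeded 1 on the 4 arrays. The median means of the factors and of the insulin genes were 0.085 (0.053 without pair 199) and 0.067 (0.0053 without pair 197, -0.018 without pair 199 and 0.021 without pair 220). Among the measured factors besides Pparg, Ebf1 had the largest mean, 0.28 ± 0.38 (SD, n = 5 pairs), Cebpd 0.22, Klf4 0.18 and Srebf2 0.00. Cebpa, the partner of Pparg in fat cell formation, had -0.21, -0.08, 0.33, -0.09 and 0.16. Slc2a4, the insulin-dependent glucose transporter, had -0.21, 0.37, -0.22, 0.84 and -0.10. Irs2, Pik3r1 and Akt2, which carry the insulin signal, had means of -0.14, 0.11 and -0.02.

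Markers of other cell types were read beside the 9 genes, from lists also drawn up with earlier results known. Of 16 measured markers of fat cells that are none of the 9, out of 20 listed, 7 exceeded 1 on the 4 arrays, beside 0.483% of all rows. The 16 had medians of 1.12 in pair 197 and 0.93 in pair 199, beside 0.08 and -0.04 over all rows. The lists share genes: all 7 (Fabp4, Dgat2, Adrb3, Cidea, Cd36, Gpd1 and Thrsp) are among the 11 pathway genes already counted, and Cidea is on the brown list too. Of 10 measured brown fat markers, out of 15, 4 exceeded 1 on the 4 arrays, beside the same 0.483%. The 10 had medians of 0.65 in pair 197 and 0.26 in pair 199. Plin1 and Retn were not analysed here. The defining brown fat gene Ucp1, which uncouples respiration to make heat, had -0.43, -2.19, 4.84, 2.75 and 0.01. Cpt1b, which brings fatty acids into mitochondria, had -0.33, -0.79, 3.20, 2.33 and -0.05. Cox8b, a cytochrome oxidase subunit outside the naming rule and given after its values were seen, had -1.51, -2.16, 3.23, 2.43 and 0.09. The other 6 brown fat markers did not exceed 1 on the 4 arrays. Ppara, a receptor that drives fatty acid oxidation and the list's smallest mean at 0.02, had 0.08, -0.24, 0.38, -0.15 and 0.05. In pair 199 it was negative, as were Ppargc1a (-0.20), Fabp3 (-0.22), Lhx8 (-0.09) and Zic1 (-0.01), which are also named after their values were seen. In pair 197 the lowest of the 10 brown fat markers had 0.02, so none was negative there.

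In pair 194, Pck1 lay on the negative side with the brown fat genes. Of the 14 fat genes outside the 9 that exceeded 1 on the 4 arrays, 4 were on the brown list (Ucp1, Cidea, Cox8b and Cpt1b). All 4 were negative in pair 194, where the median over all rows was -0.033, and higher in pair 197 than in pair 199. Among the 9 genes only Pck1 had both features, with -0.76 in pair 194, and Adrb3, Gpd1 and Dgat2 had them among the other fat genes. The other 8 of the 9 were positive there, and this grouping was chosen after the values were seen.

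**Figure D4:**
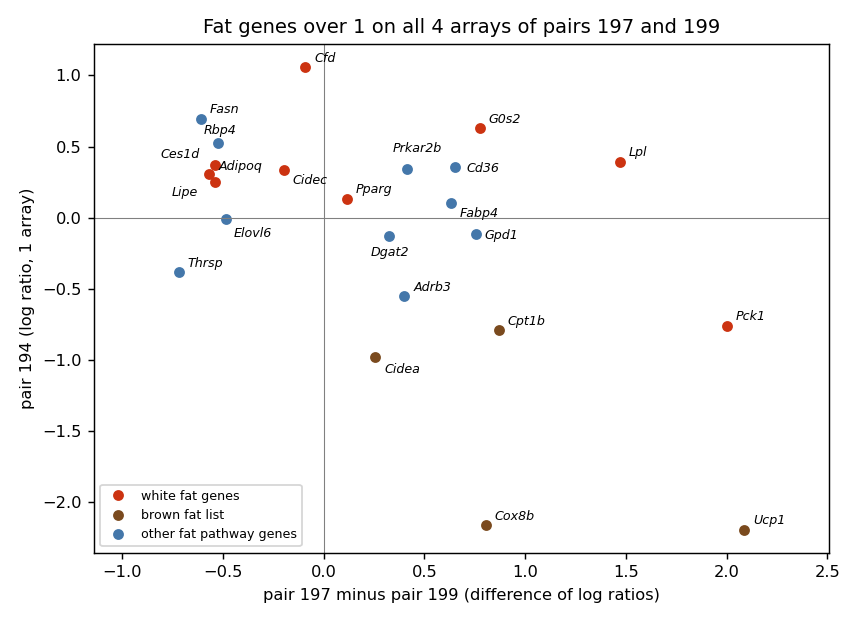
Value in pair 194 (y axis) against the difference of pair 197 from pair 199 (x axis), both on the deposited log ratio scale with the base taken as 2, for the 9 genes and the fat genes over 1 on all 4 arrays. The brown fat genes lie at the lower right with Ucp1 at -2.19 in pair 194, next to Pck1 at -0.76, and the other 8 genes are above 0.

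Marker lists of the cells of the aortic wall had other orders over the pairs. The 13 measured smooth muscle markers, of 16 listed, had pair medians of -0.75, 0.19, -0.71, 0.17 and 0.01. They were thus low in pairs 193 and 197, of which the 9 genes were high only in pair 197. The 13 measured endothelial markers, of 15, had medians of 0.19, 0.17, 0.42, -0.08 and 0.05. Fibroblast markers (11 of 12 measured) had medians of 0.21 and 0.25 in pairs 197 and 199, leukocyte markers (13 of 16) 0.05 and -0.08, and Schwann cell markers (9 of 11) 0.12 and -0.06. Skeletal muscle markers (6 of 12) had 0.07 and 0.01, erythroid markers (3 of 8) 0.05 and -0.02, and mesothelial markers (4 of 8) 0.04 and 0.11. None of the markers in these 8 lists exceeded 1 on the 4 arrays, beside 0.483% of all rows. At so low a share, lists of this size would mostly hold none, so nothing is read from it. The values of the fat and wall markers are given beside the 9 genes, and their part in the result was not tested.

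**Figure D5:**
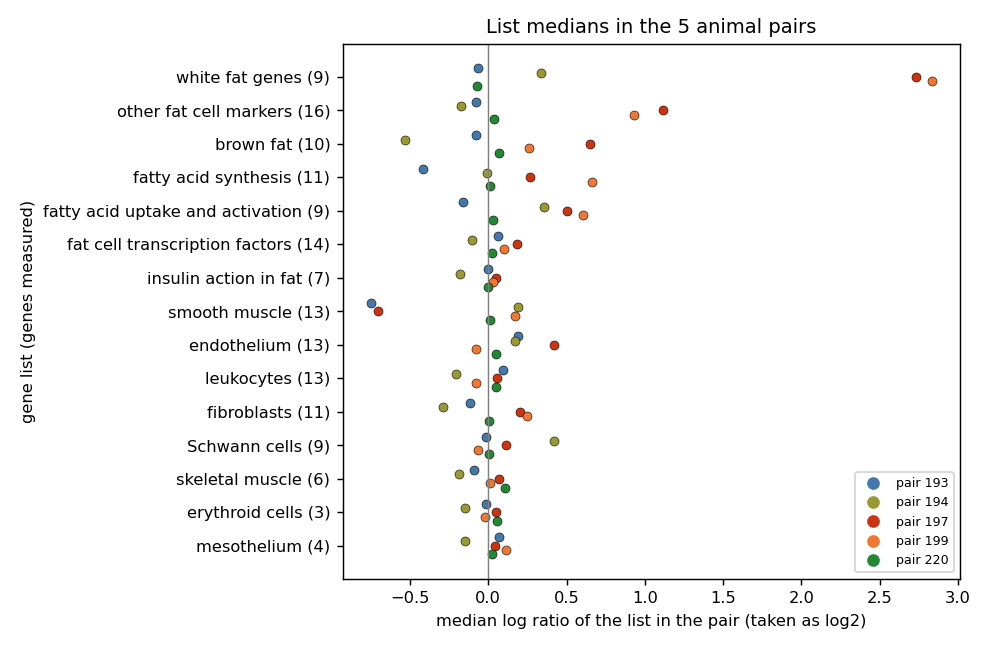
Median log ratio (base taken as 2, sign as deposited) of the 9 genes and of 14 pathway and marker lists in each of the 5 animal pairs. The 9 genes reach 2.73 in pair 197 and 2.83 in pair 199, and the other fat cell markers 1.12 and 0.93. No list of the aortic wall rises above 0.5, and smooth muscle falls to -0.75 in pair 193 and -0.71 in pair 197.

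Single markers of the wall showed where animals differed otherwise. In smooth muscle, Itga8 had -1.58, 0.59, -2.25, -0.18 and 0.14, Myl9, a myosin light chain, had -0.91, 0.19, -1.92, 0.14 and -0.14, and Actg2, a smooth muscle actin, had -1.49, 0.93, -2.80, 0.84 and 0.37. The 13 measured smooth muscle markers did not all follow these genes. They ran from -1.58 to 0.73 in pair 193, from -1.34 to 1.25 in pair 194 and from -2.80 to 0.28 in pair 197. In pairs 199 and 220 they ran from -0.18 to 0.94 and from -1.68 to 0.37. Myocd, which drives the smooth muscle programme, had a mean of -0.01. In endothelium, Emcn had a mean of 0.42, the receptor gene Kdr 0.40, Sox17 0.36 and the nitric oxide synthase gene Nos3 0.00 ± 0.07 (SD, n = 5 pairs). The Schwann cell markers Scn7a and Pmp22 had 5.29 and 3.77 in pair 194, on its single array. The 9 measured Schwann cell markers had a median of 0.42 there, and the lowest had -0.40. The white fat genes had a median of 0.34 in that pair.

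The concentration of the RNA extract differed between animals of a pair. The labels give concentrations, without a unit, of 50 for the DMO and 176 for the CMO animal in pair 197 and of 126 and 96 in pair 199. In the other pairs they are 56 and 60 (193), 112 and 158 (194) and 80 and 64 (220). The larger concentration was thus on the CMO side in pair 197 and on the DMO side in pair 199, and its part in the result was not tested. The extract amounts, also without a unit, were 5.3 for DMO 197 against 5.1 for its CMO animal, 8.0 against 11.0 for pair 199, 4.0 against 4.9 for pair 193, 6.5 against 6.4 for pair 194, and 8.0 for both animals of pair 220.

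The genes nearest to the 9 were found by the root mean square difference, over the 5 pair values, from the 9 genes' median. The 9 genes themselves lay between 0.26 for Ces1d and 1.26 for Pck1, and the median over named genes was 1.76. The median is the 9 genes' own and these values chose them, so nothing is read from that difference. The nearest other genes were Rbp4 at 0.19, Fabp4 at 0.31, Hadhb at 0.38, Acaa2 at 0.39, Mgst1 at 0.39, Etfa at 0.44, Slc1a5 at 0.44, Thrsp at 0.45, Echs1 at 0.50 and Fasn at 0.53. Hadhb, Acaa2 and Echs1 encode enzymes of mitochondrial fatty acid oxidation, and Etfa passes electrons from it. Of the 94 rows over 1 on all 4 arrays, 83 were named genes, the 9 among them, and 11 had no symbol. Below -1 were 2 rows, of which 1 was named, the elastin gene Eln, given here after its values were seen. Eln was also low in pair 220 (-1.36 and -1.29). In pair 193 it had 1.23 with the DMO sample on Cy3 and -1.31 with it on Cy5.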

How the data were processed

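Each sample's table holds 1 deposited log ratio for each of 22575 features. The authors' scanner settings, background handling and normalization method: not given in the sources used here. The deposited values were taken as log2. The mean of each array was 0 and array medians lay between -0.057 and 0.088. Dim features could not be filtered, and precision is limited by there being 5 animal pairs.

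Features were named through the platform's probe table by a numbering rule found in earlier work. Of 31 genes whose first probe was past 1 over the 4 arrays of pairs 197 and 199, the second probe had the same sign in 24, and with the plain row number in 16 of 35. The second probe was itself past 1 with that sign in only 11 of the 31, and in 0 of the 35. The table gives 1 symbol for 12750 probes, several for 5 and none for 9820. Probes of a gene were averaged, leaving 19478 rows. Of the probes, 12727 were matched to RefSeq's gene table, and 1 symbol changed.

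The 2 arrays of a swapped pair were averaged, and the 5 pair values were tested against 0 with limma 3.58.1 in R 4.3.3 (moderated test, Benjamini-Hochberg over all 19478 rows), which was tested on simulated data. The study's numbers pair a DMO animal with a CMO animal on an array, so the pair is the replicate. Nothing was adjusted for litter. Alternatives were the sign of the Cy5 arrays, single dye orientations, centring, scaling, weights, the arrays with the pair as a block, and each pair left out.

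The 9 genes, the lists and the tests were chosen with earlier results of these data known. Other genes were named, where a result turns on them, from a rule: in each list up to 3 with the largest absolute mean and the 1 with the smallest, the 10 nearest genes, and Ucp1, Fabp4, Plin1, Lep and Retn. Genes outside it are marked as named after their values were seen, and of the wall cell lists only some of the genes it gives are printed. Promoters are from RefSeq, assembly GRCr8.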

Additional observations from a re-analysis of the deposited data

How the results depend on the processing

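The count of rows passing the adjusted test was 0 in 16 of 17 alternatives and 1 without moderation of the variance. The count at an unadjusted p under 0.05, 929 in the comparison as reported, was 3131 with every Cy5 array reversed, 2174 on Cy3 arrays only, 2025 on Cy5 arrays only, 514 without pairs 197 and 199 (added after seeing the data) and 612 to 1249 leaving out 1 pair, lowest without pair 199. With the animal pair as a replicate block over the 9 arrays, 0 rows passed the adjusted test, 1393 the unadjusted one, and the 9 genes' median mean was 1.32.

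That median, 1.23 as reported, ranged from 0.61 to 1.61 leaving out 1 pair and was 0.056 with the Cy5 arrays turned and 0.024 without pairs 197 and 199. The genes' own means stayed within 1 SD in 144 of 144 alternative values, an SD that the 2 high pairs make wide, and list medians in 283 of 288. That spread hides moves: leaving out 1 pair took fatty acid synthesis (0.21) to between 0.035 and 0.40, other fat cell markers (0.41) to between 0.22 and 0.53, brown fat (0.16) to between -0.028 and 0.26, and smooth muscle (-0.29) to between -0.36 and -0.079. Scaling the arrays took fatty acid synthesis to 0.010. Keeping the probes of a gene separate took other fat cell markers to 0.14, and fatty acid uptake (0.42) to 0.30. Past 1 SD were insulin action (-0.082) and erythroid cells (0.013) with the Cy5 arrays turned, erythroid cells on Cy5 arrays only (0.035), erythroid cells without pair 194 (0.030, the highest of the values leaving out 1 pair, with -0.13 the lowest and within 1 SD), and fatty acid uptake without pairs 197 and 199 (0.069). For these the cause was not tested. Signal over background was not used here, so which ratios rest on dim spots is unknown.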
